A study of Mus musculus with 15 samples.

Results

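Activin A was set against the receptor inhibitor SB in ES-R1 cells, a line of mouse embryonic stem cells with the inner cell mass as labelled source, that is, the Activin/Nodal pathway driven on against the pathway held off. The comparison uses the 6 libraries whose titles name the control siRNA with Activin A or with SB, 3 of each, out of 15 in the series. Every group received an siRNA and was differentiated for 4 days in DMEM without serum, supplemented with N2 and B27. The 3 Activin libraries come from cells with control siRNA and Activin A at 25 ng/ml, and the 3 SB libraries from cells with control siRNA and SB. Titles spell the inhibitor SB431524 and the series text SB431542, and neither its dose nor a vehicle is given in the sources used here. SB was combined with control siRNA only. Of the other groups, 3 libraries of untreated control siRNA cells and 2 groups with Vprbp siRNA, with Activin A and untreated, serve here as points of reference. Nothing in the labels says that replicates came from separate cultures. The p-values therefore reflect only the spread within the groups of all 15 libraries, which were fitted together, and that spread may be technical.

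Activin and Nodal bind type II receptors and the type I receptors ALK4 and ALK7, which phosphorylate Smad2 and Smad3. These enter the nucleus with Smad4 and act with partners such as Foxh1. Nodal needs the co-receptor Cripto, encoded by Tdgf1, and is limited by the Lefty antagonists, which are themselves targets of the pathway. SB blocks the kinases ALK4, ALK5 and ALK7 and leaves the BMP type I receptors largely free. In the epiblast the pathway is known for keeping pluripotency, for mesendoderm and for holding back neural fate.

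Counts in genes summed to between 11146183 and 15271812 in the Activin libraries and between 13473487 and 13928431 in the SB libraries. Values are CPM, counts scaled to a common depth, on TMM-scaled library sizes. Of 24451 genes in the table, 14600 passed a filter on low counts and were tested. Principal component 1 held 48.7% of the variance. On it the Activin libraries lay between -24.4 and -24.1 and the SB libraries between 51.1 and 55.8, and none of the 6 stood apart from its group. Untreated control siRNA replicate 3, at 15.6, stood apart from replicates 1 and 2, at -1.77 and 0.863. The pluripotency factor genes that define the cell type were expressed in every library. Pou5f1 had 822, 750.3 and 797 CPM with Activin, against 333, 375 and 385 CPM with SB, Sox2 had 934, 796 and 833 CPM with Activin, against 612, 621 and 618 CPM with SB, and Nanog had 420.2, 392 and 421 CPM with Activin, against 232, 307 and 319.7 CPM with SB. Of other lineages' markers, 4 chosen after their values were seen were at or near 0, while others such as Gata4, Gata6, Hand1, Dazl and Ddx4 reached 14 CPM or more in at least 1 of the 6 libraries. Afp (yolk sac) did not exceed 0.181 CPM, Elf5 (trophoblast) 0.358 CPM, Hba-x (embryonic blood) 0.0723 CPM and Tnnt2 (heart muscle) 0.506 CPM in any of the 6 libraries. A count of 0 allows up to 0.269 CPM at the lowest depth, from counting error alone. In bulk RNA, fewer cells of a type and less RNA per cell cannot be told apart.

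By edgeR's quasi-likelihood test at an adjusted p of 0.05, 5547 of 14600 genes (38%) differed, 2780 higher with Activin (19%) and 2767 lower (19%). Counts of list members below are to be read against these shares. The median log2 fold change of the genes called was 0.54 among those higher and -0.54 among those lower, and over all genes tested it was -0.002. This balance depends on scaling beyond library totals. With RLE size factors in place of TMM the calls were 2797 higher and 2754 lower, and with library totals 2479 higher and 3082 lower. Changes of 4-fold or more numbered 227 higher and 171 lower, and changes of 16-fold or more 25 and 19. Because so many genes differed at any size, a stricter test against a fold of 1.5 is used beside it. It called 1138 genes (7.79%), 612 higher (4.19%) and 526 lower (3.6%). The 3 Activin libraries all lay above the 3 SB libraries for 3977 genes (27.2%) and all below them for 4034 genes (27.6%). The 12 largest rises and 12 largest falls were chosen among genes without overlap. For them the lack of overlap follows from the choice. Fold changes are log2 of Activin over SB, and "rose" and "fell" say what passed with Activin relative to SB. The ± beside a fold change is an approximate standard error. It is the size of the log2 fold change divided by the square root of the quasi-likelihood test's F value. The fit of all 15 libraries is the basis. Fits of the 6 libraries alone, or without 3 of the other libraries that stood apart (chosen after seeing the data), are named where they end a call or move a count by over 1.5 times. Adjusted p-values are those of edgeR's quasi-likelihood fit, adjusted over all 14600 genes by the Benjamini-Hochberg method.

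**Figure D1:**
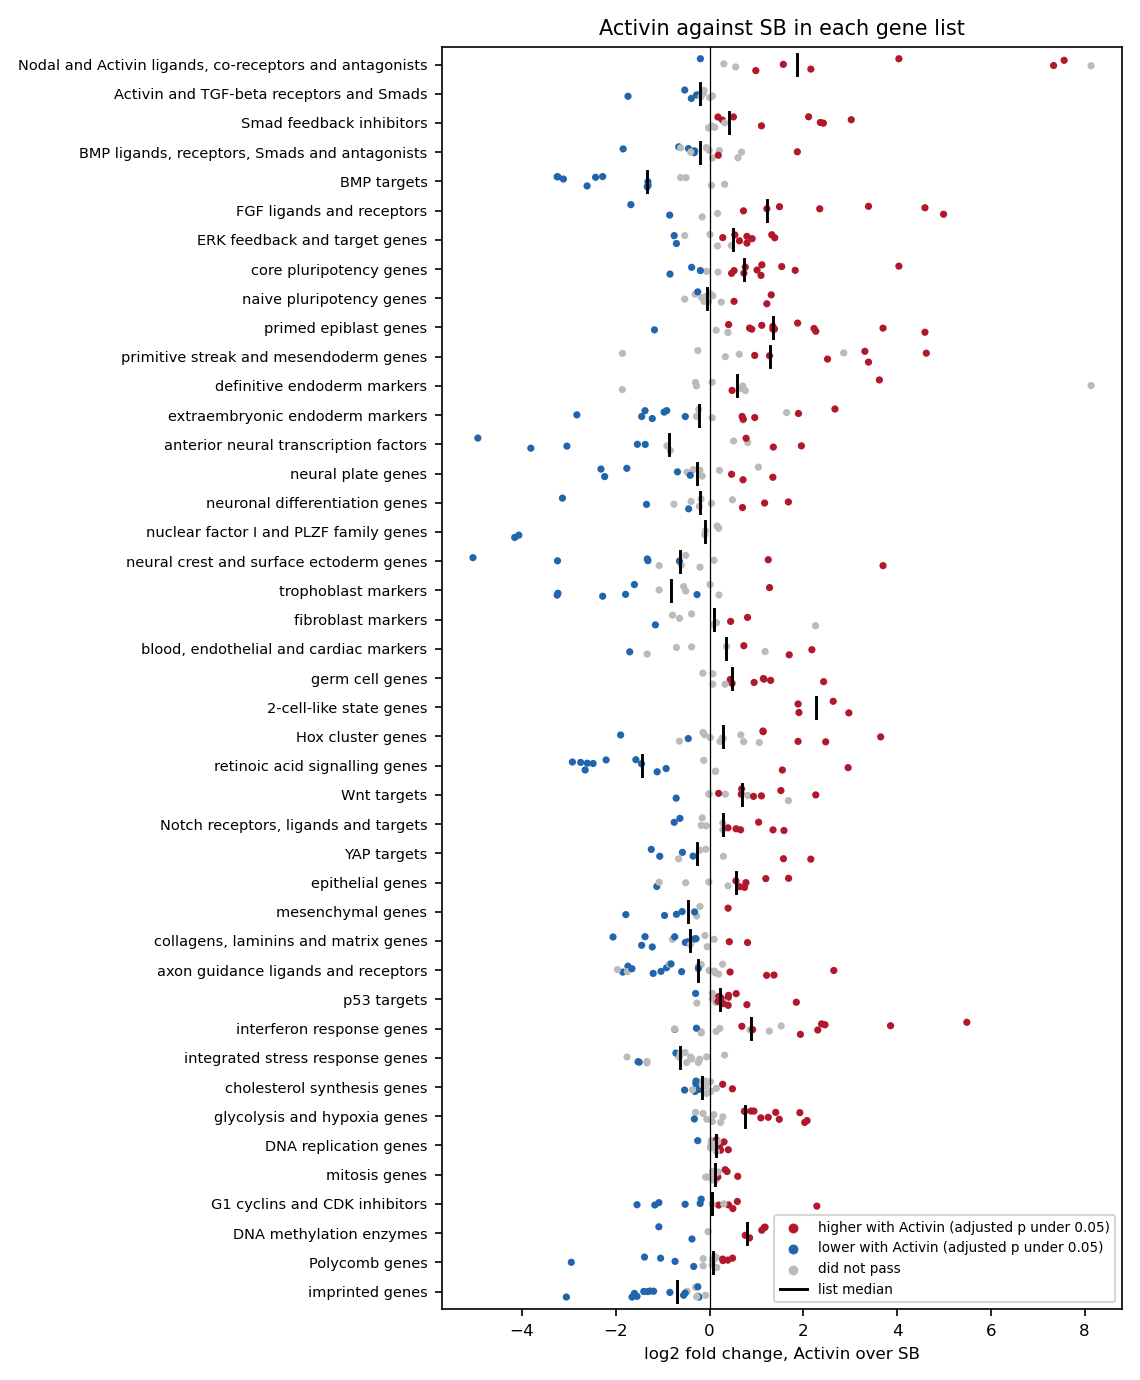
Log2 fold change of Activin over SB for every tested member of 43 gene lists, 1 point per gene, with a vertical bar at each list's median and colours for genes higher, lower or not passing at an adjusted p of 0.05. The medians of the Nodal ligand, FGF, primed epiblast, primitive streak and 2-cell-like lists lie above 1, and those of the BMP target and retinoic acid lists lie below -1.

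Among ligands, co-receptors and antagonists of Nodal and Activin, 6 of 10 tested genes rose and 1 fell, with a median log2 fold change of 1.87. The antagonist Lefty2 (chromosome 1, 180893108 to 180899107, GRCm38) had 199, 179.8 and 214 CPM with Activin, against 1.31, 0.723 and 1.07 CPM with SB. Its neighbour and paralog Lefty1 (chromosome 1, 180935022 to 180938401) had 253, 239 and 272 CPM with Activin, against 1.38, 1.81 and 1.5 CPM with SB. Both were high in every Activin library and within a few CPM of 0 in every SB library, and the groups lay far apart. The log2 fold changes were 7.56 ± 0.68 for Lefty2 and 7.34 ± 0.61 for Lefty1 (edgeR adjusted p = 8.95e-06 and 5.28e-06). Of the 50-base windows of their transcripts, 12.0% of Lefty2 windows also occur in Lefty1 and 17.9% of Lefty1 windows in Lefty2, so the split of reads between them is uncertain to that extent. Tdgf1 (chromosome 9, 110939608 to 110946158), the Cripto co-receptor of Nodal, had 504, 455 and 434 CPM with Activin, against 23.5, 33.5 and 27.7 CPM with SB. All Activin libraries exceeded all SB libraries by more than 10-fold, and the fold change was 4.04 ± 0.32 (edgeR adjusted p = 3.26e-06). The ligand gene Nodal (chromosome 10, 61417972 to 61425338) had 114, 112 and 122 CPM with Activin, against 34, 39.5 and 43.2 CPM with SB, with no overlap, and rose by 1.57 ± 0.10 (edgeR adjusted p = 9.69e-10). Inhbb, the Activin B subunit, had 78.5, 71.6 and 74.5 CPM with Activin, against 15.3, 16.1 and 18.9 CPM with SB. It rose by 2.16 ± 0.13 (edgeR adjusted p = 8.99e-10) with well separated groups. The related ligand Gdf3 was the gene that fell slightly, with a log2 fold change of -0.20 ± 0.07, and its call was lost without Activin replicate 1 or 2 or SB replicate 2 or 3 (edgeR adjusted p up to 0.156). Cer1, a secreted Nodal antagonist named after its values were seen, had 4.51, 1.35 and 1.79 CPM with Activin, against 0, 0 and 0 CPM with SB. It had 101 counts in the Activin libraries and 0 in the SB libraries, which puts the exact 95% lower limit of the ratio, for counting error, at 27.9. It did not pass (edgeR adjusted p = 0.123).

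**Figure D2:**
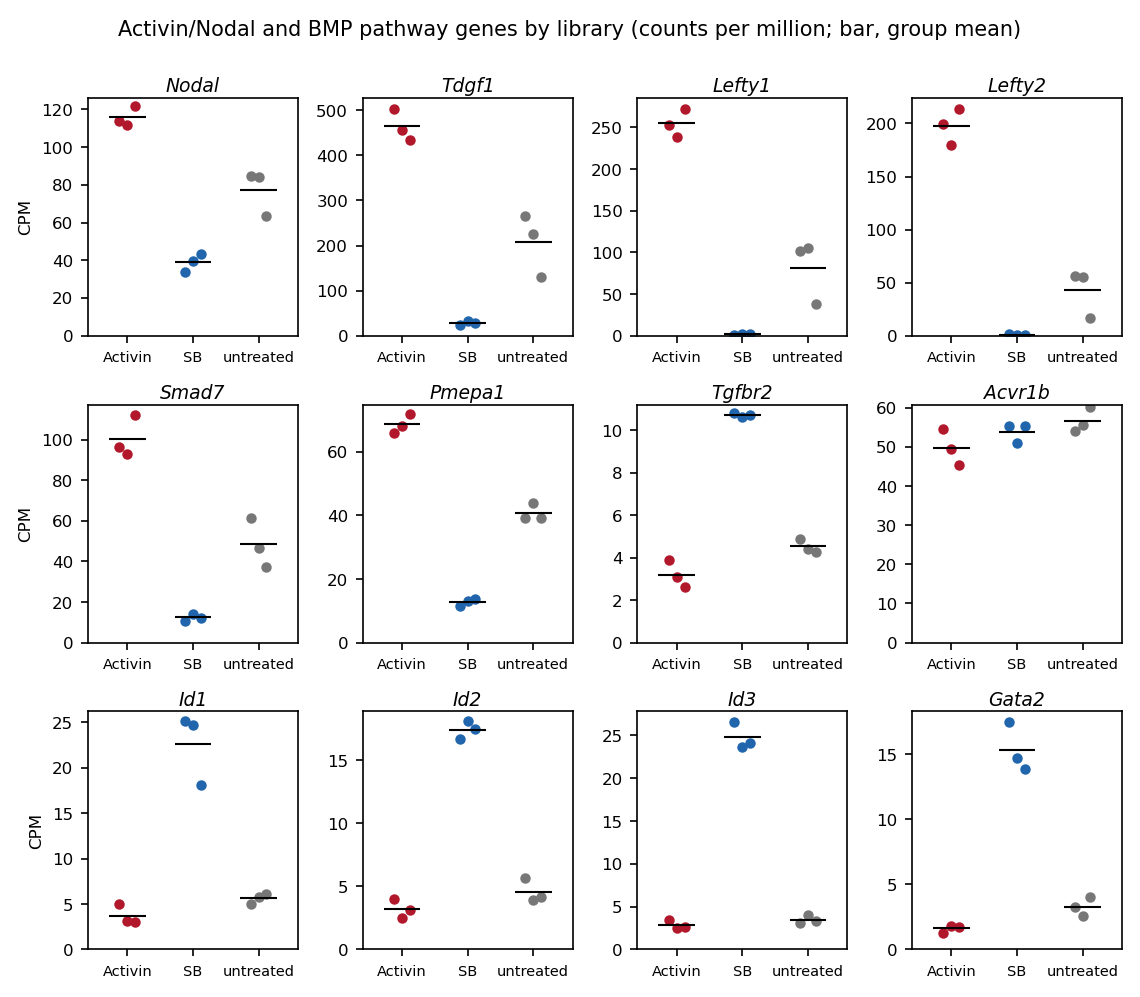
CPM of 12 Activin/Nodal and BMP pathway genes in each library with Activin, with SB and untreated, all with control siRNA, with a bar at the mean of 3. Lefty1 and Lefty2 are near 0 with SB, Acvr1b overlaps between groups, and Id1, Id2, Id3 and Gata2 are high only in the SB libraries among these 9.

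Genes of the signal-transducing chain gave no rise. Of 10 receptor and Smad genes, 0 rose and 4 fell, with a median of -0.21. The number called was near the 38% called over all genes tested, where 19% rose and 19% fell. The type I receptor gene Acvr1b (ALK4) had 54.5, 49.5 and 45.4 CPM with Activin, against 55.4, 51.1 and 55.3 CPM with SB, overlapping, and did not pass (-0.12 ± 0.08, edgeR adjusted p = 0.283). Tgfbr2, the type II receptor for TGF-beta, had 3.9, 3.07 and 2.64 CPM with Activin, against 10.8, 10.6 and 10.7 CPM with SB, and fell (-1.74 ± 0.20, edgeR adjusted p = 8.19e-07). The lowest SB library was above 2 times the highest Activin library. Tgfbr1 (ALK5) and Smad2 fell less, at -0.53 ± 0.08 and -0.39 ± 0.06. Smad3 at -0.28 ± 0.10 passed in the fit of all libraries but lost its call in each of the 6 fits without 1 library (edgeR adjusted p up to 0.132). The common partner Smad4 had 165 ± 8.07 CPM with Activin and 164 ± 4.41 CPM with SB (SD, n = 3 each), a difference of 0.01 ± 0.06.

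Intracellular inhibitors of the pathway rose with its ligands: 8 of 12 did, 5 of them beyond a fold of 1.5, and 0 fell. Smad7, which blocks the receptor, had 96.5, 92.8 and 112 CPM with Activin, against 10.6, 14.2 and 12.3 CPM with SB. Pmepa1, which sequesters Smad2 and Smad3, had 66.1, 68.1 and 71.9 CPM with Activin, against 11.4, 13.1 and 13.7 CPM with SB. Skil (SnoN), a repressor of Smad complexes, had 455, 469.5 and 431 CPM with Activin, against 87.7, 87 and 88.7 CPM with SB. In each the groups were several-fold apart and the replicates close. The fold changes were 3.02 ± 0.20, 2.43 ± 0.10 and 2.36 ± 0.19 (edgeR adjusted p = 6.28e-08, 5.89e-13 and 1.39e-06). Ski, the relative of Skil, rose by 1.11 ± 0.07. The remaining 4 of the list lay between -0.02 and 0.32 and did not pass, among them Smad6, the inhibitor of the BMP branch, at 0.04 ± 0.12 (named after its value was seen).

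BMP target genes moved the other way. Of 13 tested, 0 rose and 9 fell, all 9 beyond a fold of 1.5, with a median of -1.33. The inhibitors of differentiation, which block basic helix-loop-helix factors, were among them. Id3 (chromosome 4, 136143822 to 136145392) had 3.44, 2.53 and 2.58 CPM with Activin, against 26.6, 23.7 and 24.1 CPM with SB. Id1 had 4.97, 3.16 and 2.98 CPM with Activin, against 25.1, 24.7 and 18.1 CPM with SB, and Id2 had 3.98, 2.53 and 3.11 CPM with Activin, against 16.7, 18.1 and 17.5 CPM with SB. The lowest SB library was above the highest Activin library by more than 3-fold in all 3 genes. Id3 fell (-3.12 ± 0.53), Id1 (-2.61 ± 0.47) and Id2 (-2.43 ± 0.26), with edgeR adjusted p = 0.000735, 0.00102 and 5.8e-07 in that order. The transcription factor genes Hand1 (-3.23 ± 0.35), Gata2 (-3.25 ± 0.27), Gata3 (-2.28 ± 0.41), Dlx3 (-1.33 ± 0.15) and Tfap2a (-1.31 ± 0.20) also fell. The other 4 targets tested did not pass, among them Smad6, whose value is given above. Hand1, Gata2 and Gata3 are trophoblast markers as well. Of 12 tested trophoblast markers 1 rose and 6 fell, and their summed level was 704 to 730 CPM with Activin and 1700 to 2000 CPM with SB, most of it from the imprinted gene Peg10. Of the defining markers, Elf5 was near 0 in all 6 libraries and Cdx2 had 1.22, 0.452 and 0.86 CPM with Activin, against 1.02, 0.723 and 0.501 CPM with SB. The part of trophoblast-like cells in the BMP target result was not tested. Of the BMP signalling components, 2 of 16 rose and 5 fell, none of them beyond a fold of 1.5. That total is near the 38% called over all genes tested. The ligands Bmp4 (-0.45 ± 0.11) and Bmp7 (-0.66 ± 0.11) and the receptor Bmpr1a (-0.33 ± 0.06) fell. The small differences of the BMP Smads Smad1 (-0.32 ± 0.10) and Smad5 (0.19 ± 0.07) lost their calls when 1 library was left out, in 4 of 6 cases each (edgeR adjusted p up to 0.0588 and 0.131). Gdf6, a BMP-family ligand, rose by 1.87 ± 0.61 but not without SB replicate 1 or 3 (edgeR adjusted p up to 0.0731). The 2 rises became 1 with library totals, with either other filter or with the 6 libraries alone. Left-out libraries also moved the counts: the 2 rises became 1 or 0 without any of 5 libraries (1 without Activin replicate 1 or 2 or SB replicate 1 or 2, 0 without SB replicate 3), and the 5 falls became 3 without Activin replicate 1 or SB replicate 2.

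Promoters of Tdgf1 and Id3, which went opposite ways, show what the nearest sequence holds. The 250 bases before each start are given 5′ to 3′ on the gene's strand from RefSeq (GRCm38.p6), with the Smad-binding letters CAGAC, on either strand, in capitals.
Tdgf1, chr9:110946159-110946408, minus strand: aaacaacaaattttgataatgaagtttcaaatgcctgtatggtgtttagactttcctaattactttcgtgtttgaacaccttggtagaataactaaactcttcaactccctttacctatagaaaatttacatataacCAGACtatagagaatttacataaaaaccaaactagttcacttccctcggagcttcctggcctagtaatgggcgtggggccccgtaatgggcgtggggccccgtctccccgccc
Id3, chr4:136143572-136143821, plus strand: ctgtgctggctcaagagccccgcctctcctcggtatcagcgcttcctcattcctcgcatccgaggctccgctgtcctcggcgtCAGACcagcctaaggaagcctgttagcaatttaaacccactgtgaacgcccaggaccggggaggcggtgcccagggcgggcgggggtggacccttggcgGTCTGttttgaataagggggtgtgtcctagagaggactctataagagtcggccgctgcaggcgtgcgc
CAGAC occurred 1 time before Tdgf1 and 2 times before Id3. Of 32851 such promoter windows, 42.2% hold it at least once and 11.7% at least 2 times. The GC-rich Smad letters GGCGCC, present in 9.59% of windows, and the Foxh1 letters AATCCACA, present in 0.718%, were in neither window. The same search found CAGAC before 5 of 8 ligand and antagonist genes with a promoter entry, 3 of 7 feedback inhibitors and 2 of 10 BMP targets. These are genes with a match in any of their windows. Counted by window, as the 42.2% is, the matches were 6 of 9, 5 of 11 and 2 of 12.

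FGF ligand genes rose with Activin. Of 11 FGF ligands and receptors 7 rose and 2 fell, with a median of 1.22 and 6 rises beyond a fold of 1.5. Fgf15 (chromosome 7, 144896532 to 144900953), a ligand of the early neural tube and midbrain, had 45.8, 42.6 and 50.1 CPM with Activin, against 1.89, 0.941 and 1.5 CPM with SB. Fgf5, a hallmark ligand of the primed epiblast, had 35.5, 33.2 and 36.5 CPM with Activin, against 1.02, 2.39 and 0.931 CPM with SB. Fgf8, a ligand of the gastrulating embryo, had 8.11, 3.61 and 6.55 CPM with Activin, against 0.436, 0.723 and 0.573 CPM with SB. For all 3 the SB libraries were below 3 CPM and no groups overlapped. The fold changes were 4.99 ± 0.30, 4.59 ± 0.63 and 3.39 ± 0.57 (edgeR adjusted p = 3.12e-08, 0.000204 and 0.000335). Fgf17 (2.35 ± 0.12) and Fgf4 (1.22 ± 0.09), the autocrine ligand of stem cells, rose as well. Among receptors the direction differed: Fgfr1 had 281, 294 and 318 CPM with Activin, against 104, 109 and 104 CPM with SB, and rose by 1.49 ± 0.07, whereas Fgfr2 had 26.6, 27.8 and 21.8 CPM with Activin, against 75.6, 88 and 79.5 CPM with SB, and fell (-1.68 ± 0.13), with edgeR adjusted p = 2.25e-12 and 1.16e-08 in that order. Fgfr3 fell (-0.85 ± 0.22). Of 14 feedback and target genes of the ERK pathway below these receptors, 8 rose and 2 fell, or 1 without any of the Activin replicates, without SB replicate 1 or with no filter. The inhibitors Spry1 (1.33 ± 0.09), Spry4 (0.91 ± 0.11) and Spry2 (0.64 ± 0.08), the phosphatase Dusp6 (0.54 ± 0.09) and the factor Etv4 (0.80 ± 0.10) rose. Dusp5 (-0.75 ± 0.17) and Egr1 (-0.71 ± 0.24) fell, Egr1 losing its call without Activin replicate 1, 2 or 3 or SB replicate 1 (edgeR adjusted p up to 0.13).

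Core pluripotency genes were higher with Activin. Of 15, 10 rose and 3 fell, with a median of 0.73. The falls were 1 in number without Activin replicate 1 or SB replicate 2. Pou5f1, whose library values stand above, rose by 1.12 ± 0.07 (edgeR adjusted p = 6.91e-11), and Sox2 (0.47 ± 0.09) and Nanog (0.52 ± 0.10) rose less. The cofactor Utf1 had 1026, 915 and 1041 CPM with Activin, against 417, 528 and 448 CPM with SB, and rose by 1.10 ± 0.09 (edgeR adjusted p = 6.33e-09). Dppa5a had 266, 251 and 239.8 CPM with Activin, against 64.6, 72.4 and 76.5 CPM with SB, a rise of 1.83 ± 0.09 (edgeR adjusted p = 7.15e-12), and Dppa2 rose by 1.54 ± 0.11. Of the windows of Dppa5a and Dppa2, 38.6% and 29.1% also occur in other genes, so their counts are less certain. The RNA-binding protein gene Lin28a was the clearest exception, with 319.9, 320.3 and 324 CPM with Activin, against 574, 586 and 570 CPM with SB and a log2 fold change of -0.84 ± 0.08 (edgeR adjusted p = 7.65e-08). Of 14 naive pluripotency genes 3 rose and 1 fell (2 fell without SB replicate 1, with library totals, a replicate block or DESeq2, and 3 with the 6 libraries alone or without those that stood apart), with a median of -0.05. Klf4 had 160.4, 136 and 136 CPM with Activin, against 121, 164 and 145 CPM with SB, and Esrrb had 531, 504 and 528 CPM with Activin, against 488, 557 and 615 CPM with SB. Both overlapped between groups and did not pass (0.01 ± 0.12 and -0.09 ± 0.15, edgeR adjusted p = 0.964 and 0.687). The naive genes that rose were Fgf4, Nanog and Tcl1 (1.32 ± 0.11), a coactivator of Akt. Zfp42 (Rex1) fell (-0.25 ± 0.08), a call lost without Activin replicate 3 or SB replicate 3 (edgeR adjusted p up to 0.0976).

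Primed epiblast genes rose as a group: 12 of 15 did, 9 beyond a fold of 1.5, and 1 fell, with a median of 1.35. Foxd3, a forkhead repressor of the epiblast and neural crest, had 29.5, 27 and 35.5 CPM with Activin, against 1.31, 2.82 and 2.94 CPM with SB. Pou3f1 (Oct6) had 116, 115 and 122 CPM with Activin, against 24.1, 33.5 and 17.8 CPM with SB, and Otx2, a head and epiblast homeobox factor, had 253, 243 and 249.9 CPM with Activin, against 87.6, 104 and 101 CPM with SB. Groups did not overlap in any of them. Foxd3 rose by 3.70 ± 0.33, Pou3f1 by 2.23 ± 0.27 and Otx2 by 1.35 ± 0.33 (edgeR adjusted p = 1.87e-06, 7.71e-05 and 0.00815). The zinc finger genes Zic2 (1.88 ± 0.19) and Zic5 (0.90 ± 0.12) and the SoxB1 gene Sox3 (1.35 ± 0.21) rose too. Sox11, a factor of neural progenitors, was the member that fell, with 46.7, 51.4 and 46.3 CPM with Activin, against 125, 103 and 97.3 CPM with SB and a change of -1.18 ± 0.12 (edgeR adjusted p = 1.03e-06).

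Streak genes were low but mostly higher with Activin: 6 of 11 rose and 0 fell, with a median of 1.28. The Wnt ligand gene Wnt8a had 16.9, 12.5 and 11.8 CPM with Activin, against 1.89, 1.52 and 0.716 CPM with SB. The T-box gene Eomes had 18.7, 15.2 and 19.3 CPM with Activin, against 7.2, 6.87 and 7.88 CPM with SB. The notochord and streak gene T (brachyury) had 16.3, 12.7 and 10 CPM with Activin, against 2.11, 1.09 and 3.58 CPM with SB. Activin libraries were above SB libraries for each, at levels below 20 CPM. The fold changes were 3.31 ± 0.42, 1.28 ± 0.33 and 2.52 ± 0.69 (edgeR adjusted p = 5.01e-05, 0.00926 and 0.0143), and T lost its call without SB replicate 2 (edgeR adjusted p = 0.055). Gsc, the organizer homeobox gene, had 32 counts with Activin and 1 with SB, a ratio of 33.2 with a 95% exact interval of 5.55 to 1350 for counting error. Its call was lost without Activin replicate 1 or 3 or SB replicate 1, 2 or 3 (edgeR adjusted p up to 0.106). Of 13 streak genes listed, 11 passed the filter on low counts. A gene as low with SB as Gsc can pass the filter through groups where it is higher. The direction of such members, and their part in the list's count and median, is thus partly set by the filter. Mixl1 had 1.45, 0.903 and 1.19 CPM with Activin, against 1.24, 1.66 and 1.36 CPM with SB, overlapping, and did not pass (-0.25 ± 0.44). Of 10 definitive endoderm markers 2 rose and 0 fell, a count that depends on the fit: 4 rose with DESeq2, and 6 rose with 2 falls in the 6 libraries alone or 3 falls without the libraries that stood apart. Trh, the thyrotropin-releasing hormone gene, had 546, 489 and 556 CPM with Activin, against 41.3, 46 and 41.8 CPM with SB, and rose by 3.62 ± 0.46 (edgeR adjusted p = 0.000131). The defining factors Sox17 and Foxa2 did not pass in the fit of all libraries. Sox17 had 3.6, 2.35 and 2.78 CPM with Activin, against 2.11, 1.88 and 1.36 CPM with SB, and Foxa2 had 3.75, 2.08 and 1.79 CPM with Activin, against 14.8, 4.49 and 8.31 CPM with SB. The ranges of both genes came close without overlapping, with Sox17 on the Activin side (0.71 ± 0.82, edgeR adjusted p = 0.535) and Foxa2 on the SB side (-1.86 ± 0.82, edgeR adjusted p = 0.101). Sox17 passed with the 6 libraries alone (edgeR adjusted p = 0.0282) and without those that stood apart (edgeR adjusted p = 0.0303). Foxa2 passed with a replicate block (edgeR adjusted p = 0.0325), with DESeq2 (adjusted p = 0.0449) and without the libraries that stood apart (edgeR adjusted p = 0.00852).

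Extraembryonic endoderm markers split. Of 17, 5 rose (3 without Activin replicate 2) and 7 fell, and their summed level was 598 to 724 CPM with Activin and 943 to 1120 CPM with SB. The basement membrane genes Col4a1 (-1.22 ± 0.18), Col4a2 (-1.38 ± 0.17) and Lama1 (-1.45 ± 0.14) and the plasminogen activator gene Plat (-2.83 ± 0.20) fell. Plat, typical of parietal endoderm, had 2.83, 3.43 and 2.31 CPM with Activin, against 24.2, 17.1 and 19.1 CPM with SB. Among those that rose were the endocytic receptor partner Amn at 6.35, 6.59 and 4.96 CPM with Activin, against 1.31, 1.45 and 2 CPM with SB (1.90 ± 0.25) and the carrier protein gene Ttr at 1.15, 1.99 and 1.65 CPM with Activin, against 0.363, 0.217 and 0.143 CPM with SB (2.67 ± 0.65). The specifying factors Gata6 and Gata4 did not pass, Gata4 only with the 6 libraries alone (edgeR adjusted p = 0.0272) or without those that stood apart (edgeR adjusted p = 0.0346). Gata6 had 17.7, 14.9 and 13 CPM with Activin, against 14.4, 15 and 14.3 CPM with SB, with overlap, and Gata4 had 19.6, 17.8 and 17.7 CPM with Activin, against 25.7, 20.9 and 20.3 CPM with SB, with the groups just apart. Ttr remained below 2 CPM throughout.

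Anterior neural factors were among the largest falls. Hesx1 (chromosome 14, 26994419 to 27002329), a homeobox repressor of the anterior neural plate and pituitary, had 1.68, 1.99 and 1.12 CPM with Activin, against 23.2, 20.1 and 23.1 CPM with SB. Lmx1b (chromosome 2, 33560965 to 33641208), a LIM homeobox factor of the midbrain-hindbrain boundary and limb, had 0.765, 0.0903 and 0.529 CPM with Activin, against 17.9, 15.1 and 12.2 CPM with SB. Both were at or above 12 CPM in every SB library and below 2 CPM in every Activin library. Hesx1 fell (-3.81 ± 0.23) and Lmx1b (-4.94 ± 0.39), with edgeR adjusted p = 1.06e-10 and 9.49e-09 in that order. The list as a whole held 3 rises and 5 falls among 12 tested genes, so the direction was not shared. Lhx2 (-1.54 ± 0.36) and En1 (-1.37 ± 0.39) fell, whereas Pax2 (1.36 ± 0.30) and Rax (1.96 ± 0.43) rose, all at levels below 6 CPM. Six3 fell in the fit of all libraries but lost its call without Activin replicate 1, 2 or 3 or SB replicate 1 or 3 (edgeR adjusted p up to 0.11).

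Among 14 neural plate genes 3 rose and 5 fell (3 fell with a filter of 1 CPM). Pax6, an eye and forebrain regulator, had 11, 15.1 and 12.3 CPM with Activin, against 42.4, 41.4 and 46 CPM with SB, and fell (-1.76 ± 0.14, edgeR adjusted p = 8.91e-09). Each SB library was above 2 times every Activin library. Sox1, an early marker of the neural plate, had 33.1, 31.5 and 36.3 CPM with Activin, against 30.8, 32.5 and 24.1 CPM with SB, and did not pass (0.21 ± 0.13, edgeR adjusted p = 0.209). Its groups overlapped. Zic1 (-2.24 ± 0.57), Pou3f2 (-2.32 ± 0.61) and the RNA-binding gene Msi1 (-0.68 ± 0.08) fell, and the SoxB1 genes Sox2 and Sox3 and the filament gene Nes (0.71 ± 0.18) rose. Neuronal genes were evenly divided, with 3 of 12 higher and 3 lower (5 lower with no filter or without the libraries that stood apart). The stathmin gene Stmn2 had 107, 105 and 102 CPM with Activin, against 34.1, 31.5 and 32.2 CPM with SB, and rose by 1.68 ± 0.08 (edgeR adjusted p = 7.15e-12), and Neurod1 rose by 1.17 ± 0.22, while the tubulin gene Tubb3 fell (-0.45 ± 0.12). Nhlh1, a helix-loop-helix gene of new neurons, was below 4 CPM and fell (-3.14 ± 0.63). The defining markers Dcx and Neurog2, named after their values were seen, did not pass the filter and had 2 counts each in all Activin libraries, against 18 and 33 counts in the SB libraries. Those give Activin over SB ratios of 0.115 (95% exact interval 0.013 to 0.481) and 0.0629 (0.00731 to 0.246). Both intervals pool the libraries and cover counting error only, not the spread among libraries. Dcx had 0.0765, 0.0903 and 0 CPM with Activin, against 0.872, 0.362 and 0.0716 CPM with SB, and its groups overlapped.

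Of 6 genes of the nuclear factor I and PLZF families 2 fell and 0 rose, a total near the 38% called over all genes tested. Nfix, a nuclear factor I protein of later neural stem cells, had 1.61, 2.44 and 1.39 CPM with Activin, against 33.4, 27.6 and 28.6 CPM with SB, and Zbtb16, the zinc finger repressor PLZF, had 0.765, 0.542 and 0.86 CPM with Activin, against 13.6, 14.8 and 11.4 CPM with SB. Both were many-fold higher in every SB library, with log2 fold changes of -4.07 ± 0.23 and -4.16 ± 0.43 (edgeR adjusted p = 5.34e-11 and 1.46e-06). The other 4 did not pass, including Nfia at 1.91, 3.61 and 2.45 CPM with Activin, against 2.33, 3.11 and 2.94 CPM with SB.

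Neural crest and surface ectoderm genes gave 2 rises and 5 falls among 12. Sox9, a crest and cartilage factor, had 1.3, 0.632 and 1.19 CPM with Activin, against 11.6, 8.25 and 10.6 CPM with SB, and fell (-3.24 ± 0.55, edgeR adjusted p = 0.000402). Sox10, its relative in crest and glia, rose by 1.25 ± 0.20, at 5.81, 6.68 and 6.15 CPM with Activin, against 2.91, 2.6 and 2.29 CPM with SB. Tfap2b had 1 count with Activin and 47 with SB, an Activin over SB ratio of 0.0221 with a 95% exact interval of 0.000547 to 0.129.

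Genes of retinoic acid signalling mostly fell. Of 15 tested, 10 fell, all beyond a fold of 1.5, and 2 rose, with a median of -1.45. Stra8 (chromosome 6, 34920163 to 34939344), a retinoic acid induced gene required for meiosis, had 70.5, 69.2 and 58.6 CPM with Activin, against 513, 471 and 519.6 CPM with SB. Cyp26a1, which degrades retinoic acid and is induced by it, had 6.73, 6.68 and 6.28 CPM with Activin, against 39.8, 32.8 and 37.5 CPM with SB. The receptor gene Rarb had 5.28, 4.34 and 4.23 CPM with Activin, against 11.3, 8.75 and 9.95 CPM with SB. In all 3 every SB library exceeded every Activin library, by the widest margin in Stra8. Stra8 fell (-2.92 ± 0.15), Cyp26a1 (-2.48 ± 0.56) and Rarb (-1.12 ± 0.17), with edgeR adjusted p = 2.94e-09, 0.00513 and 2.34e-05 in that order. Aldh1a2, the enzyme that makes retinoic acid in the embryo, had 1.91, 2.35 and 2.25 CPM with Activin, against 16, 13.3 and 14.5 CPM with SB, and fell (-2.75 ± 0.20, edgeR adjusted p = 2.24e-09). The homeobox gene Meis1 (-2.65 ± 0.17) fell. Moving the other way, the receptor gene Rara had 208, 215 and 239 CPM with Activin, against 71.1, 78.6 and 76.2 CPM with SB, and Dhrs3, which turns retinal back to retinol, had 31.1, 37.1 and 44.9 CPM with Activin, against 4.87, 4.63 and 5.08 CPM with SB. They rose by 1.55 ± 0.08 and 2.96 ± 0.24 (edgeR adjusted p = 1.47e-11 and 3.98e-07).

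The promoters of Rarb and Cyp26a1 are shown because they carry the retinoic acid receptor's direct repeat. The 250 bases before each start are given 5′ to 3′ on the gene's strand (RefSeq, GRCm38.p6). Capitals mark repeats of the letters AGGTCA, of the variant AGTTCA, of the variant GGGTCA or of the variant GGTTCA, in the same direction on either strand, with 2 or 5 bases between them.
Rarb, chr14:16575477-16575726, minus strand: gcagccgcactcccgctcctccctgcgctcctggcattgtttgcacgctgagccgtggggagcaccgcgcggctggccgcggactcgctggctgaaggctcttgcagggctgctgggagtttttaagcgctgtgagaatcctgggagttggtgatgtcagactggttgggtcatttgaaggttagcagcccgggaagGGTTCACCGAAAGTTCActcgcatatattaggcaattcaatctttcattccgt
Cyp26a1, chr19:37697558-37697807, plus strand: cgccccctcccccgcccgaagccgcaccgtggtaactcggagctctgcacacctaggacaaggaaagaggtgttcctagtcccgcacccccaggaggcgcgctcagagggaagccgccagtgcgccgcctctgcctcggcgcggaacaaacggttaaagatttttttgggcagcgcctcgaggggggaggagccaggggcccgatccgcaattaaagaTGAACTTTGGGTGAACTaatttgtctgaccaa
Among the 12 genes of the list with a promoter entry, these 2 held the repeat, in 2 of 21 promoter windows. It occurs in 0.262% of the 32851 promoter windows. A match is a description of the letters and says nothing of binding in these cells.

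**Figure D3:**
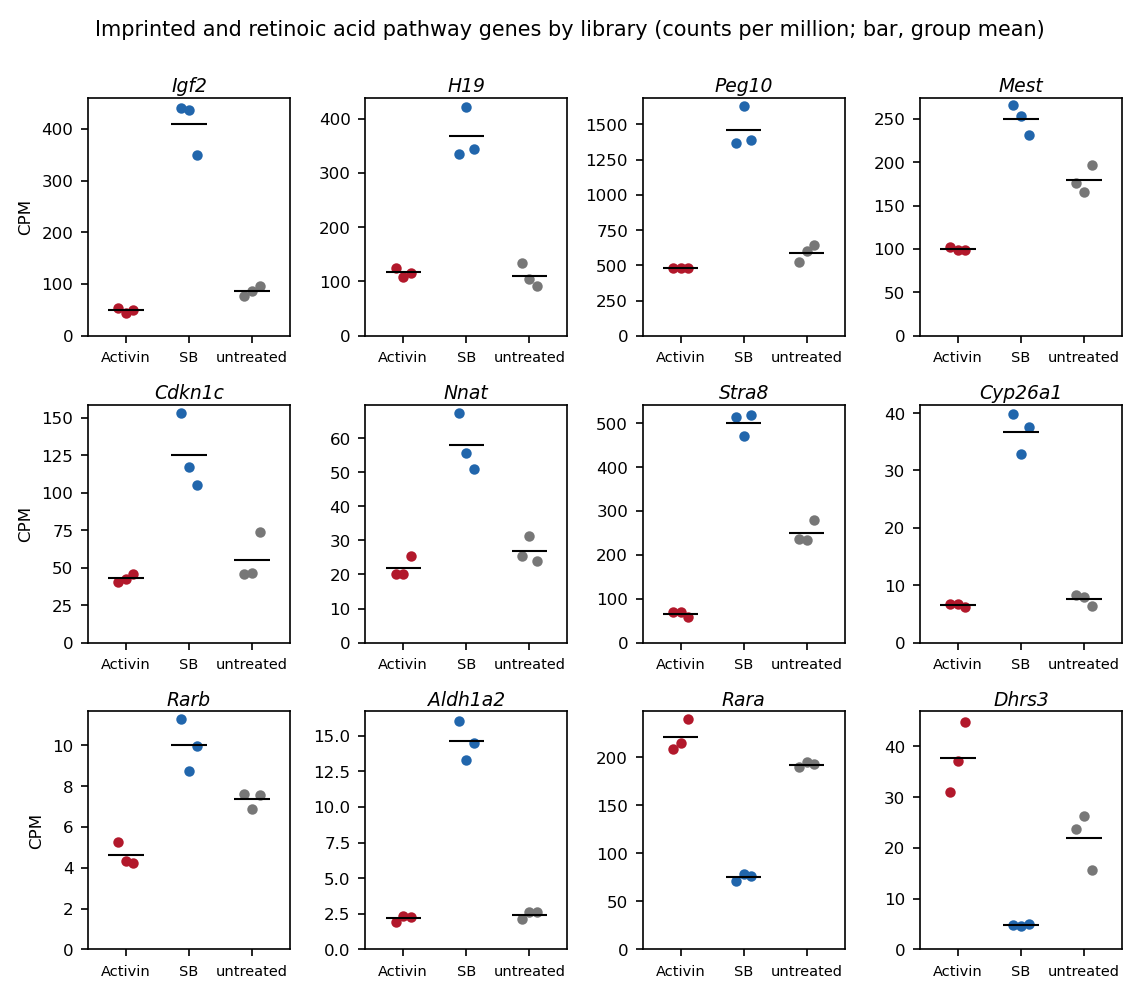
CPM of 6 imprinted genes and 6 retinoic acid pathway genes in each library with Activin, with SB and untreated, all with control siRNA, with a bar at the mean of 3. All 10 genes other than Rara and Dhrs3 are higher with SB than with Activin, and those 2 are lower.

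Hox genes, which mark position along the trunk, did not share a direction. Of 17, 5 rose and 2 fell, a total near the 38% called over all genes tested. Hoxb5 (3.65 ± 0.50) and Hoxb3 (1.89 ± 0.38) rose but stayed below 5 CPM, and Hoxa5 rose by 1.14 ± 0.21. Hoxc4 fell (-1.90 ± 0.23), with 4.21, 3.16 and 2.25 CPM with Activin, against 13.8, 10.1 and 11.7 CPM with SB.

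Of 9 fibroblast markers 2 rose (1 without Activin replicate 2 or 3 or SB replicate 2 or 3) and 1 fell (2 with library totals or a replicate block, 3 with DESeq2 or the 6 libraries alone), with summed levels of 195 to 210 CPM with Activin and 187 to 216 CPM with SB. Without the libraries that stood apart, 4 fibroblast markers rose and 2 fell. In the fit of all libraries, 19% of all genes tested rose and 19% fell. Of 9 blood, endothelial and cardiac genes 3 rose and 1 fell (2 with the 6 libraries alone and 3 without those that stood apart). The atrial myosin gene Myl7 (1.70 ± 0.45) and the actin gene Actc1 (2.18 ± 0.57) rose but lay below 4 CPM. Germ cell genes gave 7 rises and 0 falls among 11, 4 of the rises beyond a fold of 1.5. Mael, of the piRNA pathway, had 41.5, 45 and 44.8 CPM with Activin, against 22, 18.7 and 18.5 CPM with SB, and Nanos3, needed for germ cell survival, had 5.2, 4.43 and 4.17 CPM with Activin, against 0.872, 1.23 and 0.43 CPM with SB. They rose by 1.15 ± 0.14 and 2.43 ± 0.30 (edgeR adjusted p = 5.87e-06 and 2.76e-06). The meiotic gene Sycp3 (1.16 ± 0.14) and the RNA-binding gene Dazl (0.95 ± 0.14) rose as well. Of 9 genes of the 2-cell-like state, 4 passed the filter, and all 4 rose (2 without SB replicate 1), at levels under 3 CPM. The summed level of the 9 was 1.16 to 2.03 CPM with SB. Genes so low with SB can pass the filter through groups where they are higher, so their shared direction is partly set by the filter. Zscan4d had 1.3, 1.54 and 1.79 CPM with Activin, against 0.436, 0.145 and 0.143 CPM with SB, and rose by 2.64 ± 0.54 (edgeR adjusted p = 0.000614). Of the windows of Zscan4a, Zscan4c and Zscan4d, 63.6%, 85.5% and 49.6% occur in other genes, so reads cannot be assigned firmly within that family. Zscan4c lost its call without Activin replicate 1 or SB replicate 1 or 3 (edgeR adjusted p up to 0.132) and the deubiquitinase gene Usp17la without SB replicate 1 (edgeR adjusted p = 0.0707). The part of any of these cell types in the results above was not tested.

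Of 13 Wnt target genes 7 rose and 1 fell, with a median of 0.69. Tcf7, a nuclear mediator of Wnt signals, had 231, 230.1 and 232 CPM with Activin, against 101, 119 and 102 CPM with SB, without overlap, and rose by 1.11 ± 0.11 (edgeR adjusted p = 1.61e-06). The negative regulators Axin2 (0.68 ± 0.13) and Rnf43 (0.94 ± 0.25) rose. The gene that fell was Tnfrsf19 (-0.71 ± 0.10), a receptor of the tumour necrosis factor family. Of 13 Notch genes 6 rose and 2 fell. The receptors diverged: Notch3 had 247, 258 and 275 CPM with Activin, against 129, 136 and 112 CPM with SB, and Notch2 had 153, 152 and 156 CPM with Activin, against 239.8, 241 and 235 CPM with SB. Notch3 rose by 1.05 ± 0.09 and Notch2 fell (-0.63 ± 0.06), with edgeR adjusted p = 2.54e-08 and 1.9e-07 in that order. The ligand Jag1 (1.35 ± 0.15) and the target Hey1 (1.59 ± 0.24) rose. YAP targets were split as well, 2 higher and 4 lower of 10, with 1 higher without Activin replicate 2 or SB replicate 1. Ctgf, a matricellular protein gene, had 125, 136 and 148 CPM with Activin, against 24.5, 38.4 and 28.8 CPM with SB, and rose by 2.16 ± 0.23 (edgeR adjusted p = 2.5e-05), whereas its relative Cyr61 had 59.1, 53 and 47.5 CPM with Activin, against 90, 86 and 76 CPM with SB. The groups of Cyr61 did not overlap, and it passed with the 6 libraries alone (edgeR adjusted p = 1.86e-08) but not with all libraries (edgeR adjusted p = 0.118). Amotl2 (-1.06 ± 0.10) and the kinase gene Lats2 (-1.24 ± 0.16) fell. Of the windows of Lats2, 41.2% occur in an overlapping gene model.

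Epithelial genes were higher and mesenchymal genes lower with Activin. Of 11 epithelial genes 6 rose and 1 fell. The adhesion gene Epcam had 211, 205 and 209 CPM with Activin, against 86.6, 92 and 93.1 CPM with SB, and the cadherin gene Cdh1 had 847, 880.5 and 952 CPM with Activin, against 523, 522 and 552 CPM with SB. In both genes the groups were tight and apart, with rises of 1.20 ± 0.08 and 0.75 ± 0.07 (edgeR adjusted p = 5.99e-10 and 1.31e-07). Grhl2, an epithelial transcription factor, rose by 1.69 ± 0.13. The tight junction gene Cldn4 fell (-1.12 ± 0.28). The keratin gene Krt8 had 22.5, 19.6 and 18.6 CPM with Activin, against 46.1, 48.7 and 33.1 CPM with SB, without overlap, and did not pass with all libraries (-1.07 ± 0.47, edgeR adjusted p = 0.0946). It passed with the 6 libraries alone (edgeR adjusted p = 1.07e-05), without those that stood apart (edgeR adjusted p = 0.00213) and with DESeq2 (adjusted p = 0.0479). The falls in the list were then 3, 2 and 2. Of the windows of Krt8, 26.9% also occur in Krt8-ps, so its counts are less certain. Of 8 mesenchymal genes 1 rose and 5 fell. The repressor Snai1 had 4.28, 2.98 and 5.36 CPM with Activin, against 16.1, 16.9 and 11.2 CPM with SB, and fell (-1.79 ± 0.24, edgeR adjusted p = 1.33e-05), and Zeb1 (-0.58 ± 0.09), Zeb2 (-0.71 ± 0.18) and the cadherin gene Cdh2 (-0.96 ± 0.25) fell less. Of 17 matrix genes 2 rose and 9 fell, with Col6a1 (-2.06 ± 0.24) the steepest, at 1.61, 1.45 and 1.45 CPM with Activin, against 7.7, 6.51 and 4.65 CPM with SB. Of 23 axon guidance genes 4 rose and 9 fell (14 without the libraries that stood apart). The ephrin receptor gene Epha2 had 231, 198 and 207 CPM with Activin, against 37.1, 33.5 and 30.6 CPM with SB, and rose by 2.65 ± 0.21 (edgeR adjusted p = 2.21e-06). Netrin 1, encoded by Ntn1, had 19.7, 18.3 and 17.8 CPM with Activin, against 82.2, 56.4 and 62.9 CPM with SB, and its receptor gene Unc5b had 134, 134 and 137 CPM with Activin, against 46.8, 55.1 and 54.4 CPM with SB. Ligand and receptor moved apart, Ntn1 falling (-1.85 ± 0.27) and Unc5b rising by 1.37 ± 0.08 (edgeR adjusted p = 0.000198 and 9.43e-11).

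Interferon-inducible genes gave 8 rises and 2 falls among 18, 7 of the rises beyond a fold of 1.5. The nucleic acid sensor Zbp1 had 144 counts with Activin and 3 with SB, a ratio of 49.8 with a 95% exact interval of 16.7 to 244. The GTPase gene Irgm1 had 12, 12.9 and 14.2 CPM with Activin, against 0.945, 0.579 and 1.15 CPM with SB. Its relative Gbp2 had 13.6, 12.5 and 13.4 CPM with Activin, against 2.4, 2.89 and 1.86 CPM with SB. No group overlapped, and they rose by 3.86 ± 0.54 and 2.46 ± 0.36 (edgeR adjusted p = 0.000141 and 0.000104). The membrane genes Ifitm3 (0.92 ± 0.08) and Bst2 (0.69 ± 0.12) rose, and Psmb8, a subunit of the immunoproteasome outside the list, rose by 4.31 ± 0.51. The RNA sensor Ddx58 fell (-0.74 ± 0.15). Irf9, a partner of the Stat proteins, fell (-0.28 ± 0.10), a call lost without Activin replicate 1 or 3 or SB replicate 1, 2 or 3 (edgeR adjusted p up to 0.166), which leaves 1 fall. Of 20 p53 targets 10 rose and 1 fell, but mostly by small amounts, with a median of 0.22 and 2 rises beyond a fold of 1.5. Pmaip1 (Noxa), a trigger of apoptosis, had 53.5, 55.8 and 51.5 CPM with Activin, against 13.8, 16 and 14.7 CPM with SB, and rose by 1.85 ± 0.12 (edgeR adjusted p = 2.49e-10). Cdkn1a rose by 0.41 ± 0.09, and Mdm2 at 0.17 ± 0.08 did not pass, except with the 6 libraries alone (edgeR adjusted p = 0.0106) or without those that stood apart (edgeR adjusted p = 0.0194).

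Genes of glycolysis and of the response to low oxygen rose together, 11 of 19 higher and 1 lower (2 lower with a replicate block, the 6 libraries alone or without those that stood apart) with a median of 0.75. Pfkl, the liver form of phosphofructokinase, had 527, 450.1 and 425 CPM with Activin, against 184, 176 and 167 CPM with SB, and rose by 1.41 ± 0.23 (edgeR adjusted p = 0.000611). Ldha, lactate dehydrogenase, had 721, 589 and 552 CPM with Activin, against 277, 240.1 and 265 CPM with SB, and rose by 1.25 ± 0.34 (edgeR adjusted p = 0.0136). Activin replicate 1 was the highest of its group in both. The pyruvate kinase gene Pkm rose by 0.74 ± 0.14, and the oxygen-responsive gene Ankrd37 by 2.03 ± 0.44. Of the windows of Pkm, 25.8% also occur in other genes, so its counts are less certain. The glucose transporter gene Slc2a1 did not pass, with 1336, 1064 and 986 CPM with Activin, against 1188, 1375 and 1169 CPM with SB. Vegfa was the fall, at -0.32 ± 0.12, and its call was lost without Activin replicate 2 or 3 or SB replicate 1, 2 or 3 (edgeR adjusted p up to 0.142). Of 17 genes of the integrated stress response 0 rose and 3 fell, with a median of -0.62. The falls depend on the fit: they numbered 6 with DESeq2, 8 with a replicate block, and 15 with the 6 libraries alone or without those that stood apart. The asparagine synthetase gene Asns had 428, 438 and 429 CPM with Activin, against 729.6, 639.8 and 758 CPM with SB, and fell (-0.72 ± 0.14, edgeR adjusted p = 0.000948). Of 18 cholesterol synthesis genes 2 rose and 5 fell, none beyond a fold of 1.5. That total is near the 38% called over all genes tested. Without 1 library the rises were 0 (SB replicate 2) or 1 (Activin replicate 1, 2 or 3 or SB replicate 3), and the falls 2 (Activin replicate 1 or SB replicate 1) or 3 (SB replicate 3). With library totals, no filter or DESeq2 there was 1 rise, and with a replicate block or without the libraries that stood apart there were 8 falls.

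Genes of replication and mitosis differed by small amounts. Over all genes tested, 38% were called, 19% higher and 19% lower. Of 15 replication genes 6 rose (3 without Activin replicate 1 or 3 or SB replicate 3) and 1 fell, of 15 mitosis genes 4 rose (7 with the 6 libraries alone) and 0 fell, and none of these changes passed beyond a fold of 1.5. The proliferation marker Mki67 had 822, 954 and 883 CPM with Activin, against 859, 796 and 878 CPM with SB, overlapping, and did not pass (0.07 ± 0.11, edgeR adjusted p = 0.639). Regulators of G1 gave 5 rises and 6 falls among 13. Myc had 64.3, 64.1 and 70 CPM with Activin, against 12.6, 14.8 and 13.2 CPM with SB, and rose by 2.29 ± 0.15 (edgeR adjusted p = 3.04e-09). The CDK inhibitor gene Cdkn1c had 40.1, 42.6 and 45.8 CPM with Activin, against 153, 117 and 105 CPM with SB, and fell (-1.55 ± 0.24, edgeR adjusted p = 0.000351), and Cdkn2a (-1.08 ± 0.16) and Cdkn2c (-1.17 ± 0.26) fell. The enzymes of DNA methylation gave 5 rises and 2 falls among 8. The de novo methyltransferase gene Dnmt3a had 511, 532 and 541 CPM with Activin, against 225, 253 and 254 CPM with SB, and Dnmt3b had 445, 447 and 461 CPM with Activin, against 238, 275 and 236 CPM with SB. They rose by 1.11 ± 0.12 and 0.85 ± 0.12 (edgeR adjusted p = 3.05e-06 and 4.19e-05). The demethylating dioxygenase genes divided, Tet1 (1.17 ± 0.20) and Tet2 (1.19 ± 0.20) rising and Tet3 (-1.08 ± 0.12) falling, with 29.4, 35.3 and 30.5 CPM with Activin, against 73.6, 67.6 and 59.8 CPM with SB. Of 17 Polycomb genes 4 rose and 5 fell. The methyltransferase Ezh2 did not pass (0.11 ± 0.06), while Bmi1, a ring finger subunit, had 10.9, 11.7 and 12.1 CPM with Activin, against 23.2, 23.8 and 24.8 CPM with SB, and fell (-1.04 ± 0.14, edgeR adjusted p = 7.06e-06).

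Imprinted genes fell without exception among those called: 13 of 18 fell, 7 beyond a fold of 1.5, and 0 rose, with a median of -0.70. Their summed level was 2180 to 2250 CPM with Activin and 4260 to 4610 CPM with SB. Igf2 (chromosome 7, 142650768 to 142666816), the paternally expressed growth factor, had 54, 44 and 49.5 CPM with Activin, against 440.3, 436 and 349.5 CPM with SB. H19, the maternally expressed RNA beside it (chromosome 7, 142575530 to 142578146), had 125, 108 and 116 CPM with Activin, against 336, 422 and 344 CPM with SB. Peg10, a retrotransposon-derived gene of the placenta (chromosome 6, 4747306 to 4760517), had 481, 481 and 483 CPM with Activin, against 1369, 1632 and 1389 CPM with SB. In each the lowest SB library was above 2 times the highest Activin library. Igf2 fell (-3.05 ± 0.56), H19 (-1.65 ± 0.41) and Peg10 (-1.60 ± 0.09), with edgeR adjusted p = 0.0015, 0.00842 and 5.94e-11 in that order. Igf2 and H19, which are expressed from opposite parental copies of 1 locus, thus fell together. Of the windows of Igf2 61.2% occur in an overlapping gene model, Gm49394. Mest, also paternally expressed, had 102, 99.1 and 99 CPM with Activin, against 266, 253 and 231 CPM with SB, and fell (-1.32 ± 0.16, edgeR adjusted p = 4.32e-05). Nnat (-1.40 ± 0.13), Plagl1 (-1.27 ± 0.16), a zinc finger regulator of other imprinted genes, and Cdkn1c also fell. The 5 that did not pass had estimates between -0.48 and -0.09.

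Several of the largest changes were in genes of no list. Trim67 had 10.8, 10.7 and 12.8 CPM with Activin, against 0.436, 0.434 and 0 CPM with SB, and Tmem154 had 28.1, 24.7 and 25.5 CPM with Activin, against 0.363, 1.01 and 0.859 CPM with SB. Both were near 1 CPM or lower with SB, and rose by 5.27 ± 0.69 and 5.11 ± 0.41 (edgeR adjusted p = 7.11e-05 and 5.22e-07). Bcl11a, a zinc finger repressor, rose by 4.40 ± 0.23 and Vrtn, a regulator of vertebral number, by 4.14 ± 0.42. Enpp2, or autotaxin, which makes lysophosphatidic acid, had 22.3, 24 and 21 CPM with Activin, against 0.291, 1.45 and 1.07 CPM with SB, while Lpar3, a receptor for that lipid, had 0.765, 1.08 and 1.19 CPM with Activin, against 13.5, 9.91 and 8.52 CPM with SB. The enzyme gene rose by 4.56 ± 0.72 and the receptor gene fell (-3.38 ± 0.32), with edgeR adjusted p = 0.000537 and 8.63e-08 in that order. Mup6, a major urinary protein gene of a multigene family, rose by 4.52 ± 0.55 but did not exceed 4.44 CPM.

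Among falls, Tmem255a (chromosome X, 38196573 to 38252496) had 0.0765, 0 and 0 CPM with Activin, against 5.09, 6.44 and 4.87 CPM with SB. Its 1 count with Activin and 227 with SB give an Activin over SB ratio of 0.00457, with a 95% exact interval of 0.000115 to 0.0257. Tmem132e had 0.229, 0.361 and 0.264 CPM with Activin, against 18.2, 8.68 and 10.7 CPM with SB, and fell (-5.44 ± 0.42, edgeR adjusted p = 3.77e-09). The neighbouring metallothionein genes, whose products bind zinc and other metals, fell together. Mt1 (chromosome 8, 94178883 to 94180327) had 17.1, 16.6 and 16.9 CPM with Activin, against 227, 208 and 205 CPM with SB, and Mt2 (chromosome 8, 94172618 to 94173567) had 16.6, 15.7 and 13.1 CPM with Activin, against 208, 196 and 216 CPM with SB. Every SB library was above 10 times every Activin library, and the falls were -3.66 ± 0.38 and -3.78 ± 0.51 (edgeR adjusted p = 2.58e-05 and 0.000189). Nr2f2 (COUP-TFII), a nuclear receptor of mesoderm and veins, fell (-3.57 ± 0.44), with 0.306, 0.994 and 0.595 CPM with Activin, against 9.96, 7.02 and 5.23 CPM with SB. Igf1 fell (-3.51 ± 0.36), at 0.229, 0.271 and 0.397 CPM with Activin, against 3.63, 3.18 and 3.87 CPM with SB, the same direction as Igf2. Vprbp, the target of the other siRNA in the series, differed slightly in these control siRNA cells, with 178, 175 and 184 CPM with Activin, against 144, 151 and 157 CPM with SB and a rise of 0.25 ± 0.06 (edgeR adjusted p = 0.00466).

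The untreated control siRNA libraries show where these cells lay without either addition. On a scale of log2(CPM + 0.5) from 0 at the SB level to 1 at the Activin level, the median position was 0.66 over the 612 genes higher beyond a fold of 1.5 and 0.673 over the 526 lower. The untreated state thus lay nearer the Activin end for the median gene in both directions. Positions above 1, beyond the Activin level, were found for 37 of the 612 and 33 of the 526, and positions below 0 for 3 of each. A test of whether untreated cells were off the midpoint called 504 genes (3.45%), 213 with untreated cells below the midpoint (1.46%) and 291 with them above it (1.99%). Of the 612 genes 115 were called nearer Activin and 3 nearer SB, and of the 526 genes 71 and 2. Inhbb had 83.5, 83.3 and 93.3 CPM in untreated cells, above the Activin range given earlier, and Fgfr1 had 256, 254 and 260 CPM, below it. Hesx1 had 1.56, 2.1 and 1.42 CPM untreated, at its Activin level (position 0.978, midpoint edgeR adjusted p = 0.000134). Genes nearer SB were fewer: Dab2, an endocytic adaptor, had 69.5, 92 and 73.5 CPM with Activin, 49.6, 47 and 45.7 CPM with SB and 39.4, 44.6 and 32.5 CPM untreated. Parp14, an interferon-induced ADP-ribosyltransferase, had 22.9, 22.9 and 18.8 CPM with Activin, 12.9, 12.7 and 13.8 CPM with SB and 10.7, 11.7 and 9.66 CPM untreated. In both genes every untreated library lay below every library with Activin or SB, outside the range between them. For T, 2.37, 2.1 and 2.62 CPM untreated lay at the SB level, and the midpoint test did not pass (edgeR adjusted p = 0.439). Untreated replicate 3 was the lowest of the 3 for Lefty1, at 38.1 CPM against 102 and 105 CPM in replicates 1 and 2. Sox1 had 56.2, 50.6 and 53.6 CPM untreated, above every library with Activin or SB. The midpoint test called 254 genes without untreated replicate 2, 317 without Activin replicate 2, 328 without SB replicate 1 and 333 without untreated replicate 1. Without untreated replicate 3 and 2 Vprbp siRNA libraries that also stood apart, it called 956, an alternative chosen after seeing the data.

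**Figure D4:**
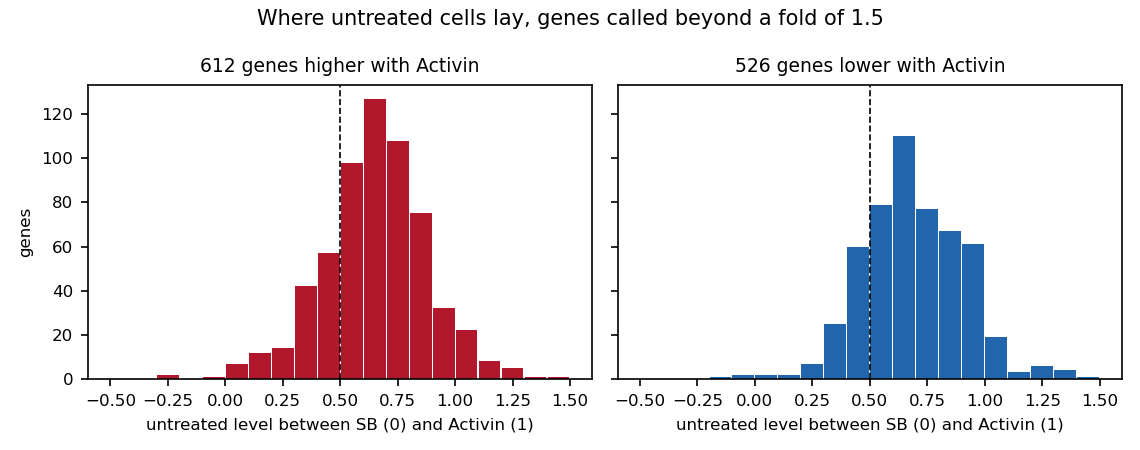
Number of genes by the position of the untreated mean between the SB mean (0) and the Activin mean (1) on log2(CPM + 0.5), for the 612 genes higher and the 526 lower with Activin beyond a fold of 1.5. Both distributions peak between 0.6 and 0.7, right of the dashed midpoint.

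Activin was also given to cells with Vprbp siRNA, and that comparison, Activin over untreated, shares no library with the 6 above. There 894 genes were called (6.12%), 533 higher (3.65%) and 361 lower (2.47%). Of the 612 genes higher beyond a fold of 1.5 against SB, 208 (34%) were called higher and 2 lower with Vprbp siRNA. Of the 526 lower genes, 107 (20.3%) were called lower and 3 higher. Seen from the other side, 396 of the 533 (74.3%) were called higher with Activin against SB and 235 of the 361 (65.1%) lower. Lefty2 rose by 1.78 ± 0.41 there, Fgf5 by 1.65 ± 0.43, T by 2.73 ± 0.58 and Smad7 by 0.93 ± 0.17. Stra8 fell (-2.15 ± 0.15), Meis1 (-1.97 ± 0.16) and Pax6 (-1.11 ± 0.14). Of the 13 BMP targets 1 was called higher and 1 lower there, and Id3, at 0.80 ± 0.53, did not pass. Of the 18 imprinted genes 3 were called lower, and Igf2, at 0.15 ± 0.53, was not among them. Inhbb, which rose against SB, fell there (-0.49 ± 0.12). In control siRNA cells its mean was also lower with Activin (74.87 CPM) than untreated (86.69 CPM). This comparison begins from untreated cells and not from SB, and carries a knockdown, so the sizes of the 2 responses are not comparable and their difference was not tested. Its calls numbered 351 without Vprbp siRNA replicate 3, 464 without Vprbp siRNA with Activin replicate 2 and 485 without Vprbp siRNA replicate 1.

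**Figure D5:**
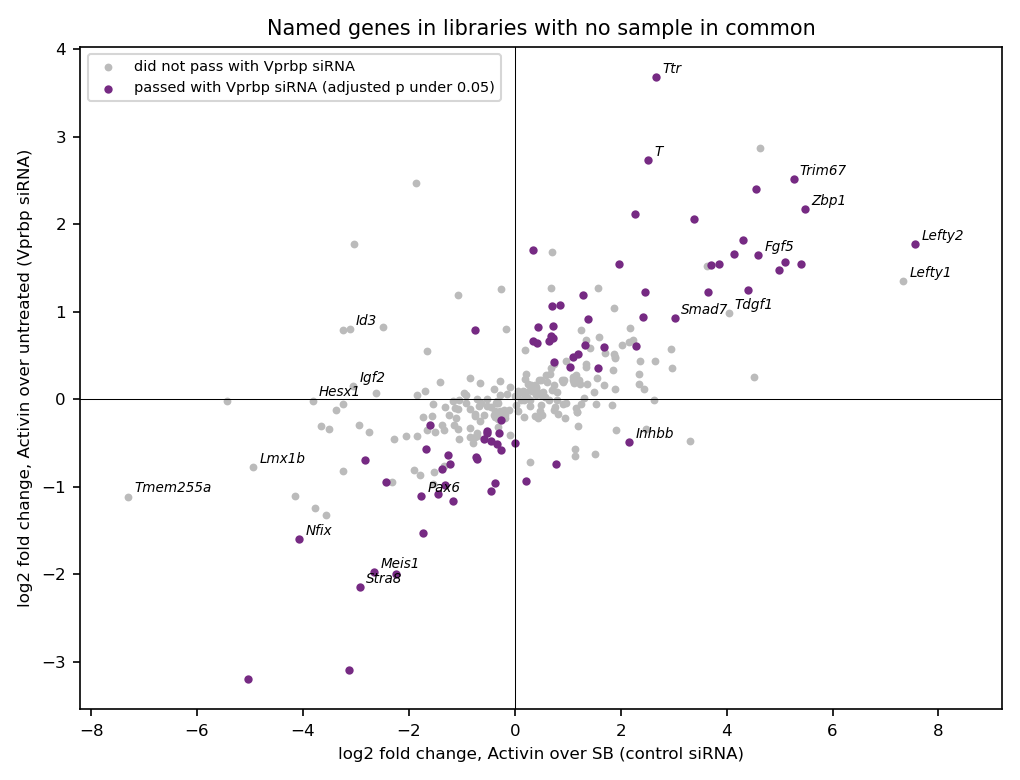
Log2 fold change of 290 named genes, Activin over SB with control siRNA on the horizontal axis and Activin over untreated with Vprbp siRNA on the vertical axis, in libraries with no sample in common. The 77 genes that passed in the Vprbp siRNA comparison are coloured, and most lie in the upper right or lower left.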

How the data were processed

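Total RNA of 15 libraries in 5 groups of 3 was sequenced. The authors deposited read counts per gene, made with HTSeq 0.6.1p1 on mm10, per the submitters' processing notes; for aligner, annotation and strand, nothing was given in the sources used here. Of the reads in the tables of the 6 libraries compared, 58.19 to 60.43% were in genes, 11.0 to 12.5% in no feature and 27.73 to 29.22% not aligned, and these tallies stayed out of library sizes and tests. A count of 0 allows 3 counts, or 0.196 to 0.269 CPM in the Activin libraries and 0.215 to 0.223 CPM in the SB libraries. PCR duplicates are not marked, so intervals and limits cover counting error only.

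Counts were filtered (filterByExpr, minimum count 10), scaled by TMM and fitted with edgeR 4.0.16 (R 4.3.3, limma 3.58.1) by the robust quasi-likelihood method with 1 mean per group over all 15 libraries, which leaves 10 residual degrees of freedom; the fold-1.5 test used glmTreat. Adjusted p-values are Benjamini-Hochberg over 14600 genes, with a threshold of 0.05. At an unadjusted p under 0.05, 6818 genes passed in Activin against SB. The procedure was tested on simulated data. Alternatives were RLE scaling, library totals, no filter, a filter of 1 CPM, DESeq2 1.42.0, the compared libraries only, a replicate block and leaving out each library. Same-numbered libraries did not all deviate together in any pair of groups compared (correlations of 0.0123, -0.05 and -0.00457 between Activin and SB), so the numbers were not taken as pairs. They did between untreated control and Vprbp siRNA libraries (0.123, 0.196 and 0.369), which are not compared here.

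The groups, the gene lists and the tests were chosen with earlier results of these data known. Genes named are the 12 largest rises and 12 largest falls with groups that do not overlap and a mean log2 CPM of at least 1, list members marked for naming and up to 4 called members per direction and list with the smallest p, the 6 members per direction of the midpoint test, and Vprbp; some genes under this rule are not reported here. Of 571 list genes 570 were found in the table. Symbols were matched to RefSeq names directly for 23249 genes and by synonym for 1050, and locations are those of GRCm38.p6. Promoter entries were found for 18 of the 24 largest changes. The share of 50-base transcript windows found in another gene was counted from GENCODE vM21 transcripts, found for 293 of 296 named genes. Ratios of summed counts have exact 95% intervals.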

Additional observations from a re-analysis of the deposited data

How the results depend on the processing

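In Activin against SB the number of calls, 5547, ranged over alternatives from 4533 without Activin replicate 1 to 6861 with only the 6 libraries fitted, and the number beyond a fold of 1.5, 1138, from 890 without SB replicate 1 to 1442 without the 3 libraries that stand apart, an alternative chosen after seeing the data. With library totals in place of TMM the calls were 2479 higher and 3082 lower. No named gene changed direction. Of 290 named genes tested, 258 were called, and 33 of these lost the call under at least 1 alternative, 16 to 20 of them in each fit without 1 library. Among genes described above, Smad5, Egr1, Gsc, Six3 and Vegfa lost the call with no filter on low counts (edgeR adjusted p of 0.0577 to 0.0676), and Smad5 also with library totals (edgeR adjusted p = 0.0874). The midpoint test is less firm, with 504 calls, against 824 with only the libraries compared, 956 without the 3 libraries that stand apart and 254 to 414 with 1 library left out. The Activin response with Vprbp siRNA gave 894 calls, against 373 with only the libraries compared and 351 to 1167 with 1 library left out. The cause of these shifts was not tested. A replicate block, which shares only a number among the libraries, gave 5880 calls in Activin against SB, 1213 beyond a fold of 1.5, 695 in the midpoint test and 1193 in the Vprbp siRNA comparison, and no Activin library correlated best with the SB library of its own number. DESeq2 called 5466. Depth limits genes below about 0.27 CPM, where a count of 0 cannot be told from a low level.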

Other observations

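A few genes outside the pathway lists were set apart by the untreated libraries. Cpt1a, which carries fatty acids into mitochondria, had 105, 101 and 107 CPM with Activin, 16.9, 22.8 and 22.1 CPM with SB and 74.6, 80.8 and 80.1 CPM untreated. St6gal1, a sialyltransferase, had 70, 72.2 and 71.3 CPM with Activin, 141, 118 and 125 CPM with SB and 59, 65 and 50.3 CPM untreated. Both had untreated values nearer those with Activin, with midpoint edgeR adjusted p = 4.83e-06 and 1.82e-05. In St6gal1 the untreated values lay below every library with Activin or SB. The polyamine oxidase gene Smox had 16.7, 18 and 15.5 CPM with Activin, 21.1, 20.3 and 21.4 CPM with SB and 22.7, 25.9 and 27.6 CPM untreated. The untreated values were nearer SB (midpoint edgeR adjusted p = 0.00475) and above every library with Activin or SB. Smox was called lower with Activin than with SB. Its call between Activin and SB was lost without Activin replicate 3 (edgeR adjusted p = 0.0723).

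Calls were more frequent among genes with more reads, but larger changes were less frequent there. In 4 equal groups by mean CPM, lowest to highest, 29.7, 39.2, 40.4 and 42.6% of genes were called, and 12.6, 9.4, 5.15 and 4.05% were called beyond a fold of 1.5.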
